A study of Mus musculus with 17 samples.

Results

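The nuclear genes for subunits of the respiratory chain were taken as those on the array with a symbol of the Nduf, Sdh, Uqcr, Cox4 to Cox8 and Atp5 families and at least 1 probe set paired with a single gene, leaving out the assembly factors, Ndufa4l2 and Cox6a2. The rule found 78 of the 12393 measured genes. They divided by name into 34 genes of complex I (NADH dehydrogenase), 4 of complex II (succinate dehydrogenase), 8 of complex III (the cytochrome bc complex), 15 of complex IV (cytochrome c oxidase) and 17 of complex V. Ndufa4 was counted with complex I by its name, although it is now placed in complex IV. The rule used no measured value, apart from taking the probe set with the highest mean where a gene had several, as 44 of the 78 did.

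The mitochondrial respiratory chain passes electrons from NADH and succinate to oxygen through complexes I to IV and pumps protons across the inner membrane. ATP synthase, complex V, uses the returning protons to make ATP. Most of the subunits are encoded in the nucleus, and several subunits of complex IV exist as a form found in most tissues and a second form found in heart, skeletal muscle and brown fat. The mammary gland lies in a fat pad next to muscle of the body wall, and tumour samples can hold both.

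The tumours were from FVB mice in which MMTV, a promoter active in mammary epithelium, drives Myc T58A, a mutant of the transcription factor Myc. All were described as low expressing. Normal gland and tumours without the transgene were not analysed here. By histology 6 were EMT tumours, a label taken here to stand for epithelial to mesenchymal transition, 1 was Papillary, 1 Microacinar and 9 Squamous, and each had 1 array. A number such as that of EMT 2 is only a name. Values are log2 signals as deposited, and a difference in signal between probe sets was not read as a difference in RNA, because signal also depends on the probes. The number of tumours limits the precision. Whether each tumour had a mouse of its own is not given. Squamous 5 and the Microacinar tumour share a number in their titles, as do Squamous 7 and Squamous 8, so the p-values measure only the spread between these samples, which may in part be technical.

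Of the arrays 14 had titles of one format and 3 (EMT 5, EMT 6 and Squamous 9) had titles with TM, and the EMT model included the format as a covariate. The SD of all values was 2.46 to 2.51 on TM arrays and 2.25 to 2.29 on the others. On the 3 TM arrays 2989 of 22690 probe sets read 1 identical value, among them 0 of those used for the 78 genes. Some of the 78 were equal on 2 TM arrays, such as Cox7a2l (11.89) and Atp5md (9.93) in EMT 5 and EMT 6. The labels do not explain the equal values, which may not be independent. On all 3 TM arrays 7 of the 78 genes lay above all 14 other arrays and 4 lay below them, against 11.0% and 15.7% of all genes. The mean of 4 epithelial markers (Cdh1, Epcam, Krt8 and Krt18) read 9.94 for EMT 4, 6.995 for EMT 5 and 9.65 for EMT 6, against 11.35 to 12.42 in the 9 Squamous tumours. EMT 1, with 12.27, EMT 2, with 12.12, and EMT 3, with 12.75, lay in or above that range, so the EMT label held tumours with high and with low values of these markers. In bulk tissue, fewer cells of a type and less RNA per cell cannot be told apart.

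Sequences are shown for the complex IV subunits that occur in tissue forms, because these held the genes with the widest spread between tumours. The 250 bases before the RefSeq transcription start (GRCm38.p6, 5′ to 3′ on the strand of the gene) are given for Cox7a1 and Cox8b, the heart, muscle and brown fat forms, and for Cox7a2 and Cox8a, their widely expressed counterparts. Capitals mark CpG dinucleotides.
Cox7a1, chr7:30183921-30184170, plus strand: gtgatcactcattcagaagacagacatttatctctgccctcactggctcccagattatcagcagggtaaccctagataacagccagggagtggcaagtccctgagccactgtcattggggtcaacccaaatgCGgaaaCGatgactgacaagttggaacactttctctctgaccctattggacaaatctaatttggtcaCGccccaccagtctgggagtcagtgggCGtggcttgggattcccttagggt
Cox8b, chr7:140900447-140900696, minus strand: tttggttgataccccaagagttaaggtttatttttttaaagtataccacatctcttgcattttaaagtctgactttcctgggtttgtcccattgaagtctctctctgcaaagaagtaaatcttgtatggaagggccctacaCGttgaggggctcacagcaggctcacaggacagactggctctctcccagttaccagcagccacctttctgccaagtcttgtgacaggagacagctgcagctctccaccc
Cox7a2, chr9:79759854-79760103, minus strand: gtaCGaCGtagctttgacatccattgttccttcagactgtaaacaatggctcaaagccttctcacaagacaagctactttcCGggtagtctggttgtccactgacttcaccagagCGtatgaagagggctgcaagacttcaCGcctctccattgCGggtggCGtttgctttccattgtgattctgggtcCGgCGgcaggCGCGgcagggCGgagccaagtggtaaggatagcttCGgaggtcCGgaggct
Cox8a, chr19:7217617-7217866, minus strand: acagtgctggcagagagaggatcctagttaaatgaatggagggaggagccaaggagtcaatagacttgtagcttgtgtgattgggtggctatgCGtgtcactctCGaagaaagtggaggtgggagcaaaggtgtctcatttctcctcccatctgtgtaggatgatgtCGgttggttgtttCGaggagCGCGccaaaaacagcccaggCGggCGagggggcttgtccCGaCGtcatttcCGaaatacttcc
The windows of Cox7a1 and Cox8b held 4 and 1 CpG, and those of Cox7a2 and Cox8a held 14 and 11. Over the 65 of the 78 genes with such a window the median was 14 CpG, against 6 over the 27025 genes of the table, taking the highest count where a gene had several starts. Of 8 motifs searched on both strands, CAGCTG, an E-box read by myogenic factors, began 19 bases before the start of Cox8b, and occurred in 6 of 65 windows of these genes (9.23%) and in 14.7% of all. CCAAT was found on the opposite strand 137 and 74 bases before the start of Cox7a1 and 171 before that of Cox8a, and in 40.0% of these windows against 37.5% of all. CCGGAAG, the core read by ETS factors such as GABPA, occurred in 12 of 65 windows (18.5%, against 7.83% of all). The palindromic site of NRF1, a regulator of many nuclear genes for mitochondria, occurred in 3 of 65 (4.62%, against 0.877%), and the site of MEF2, a muscle factor, in 0 (0.0%, against 0.167%). TCAAGGTCA, read by estrogen-related receptors, occurred in 1 of 65 (1.54%, against 0.422%), as did AAGATGGCG, read by YY1 (against 0.71%). CACGTG, the E-box read by Myc, occurred in 6 of 65 (9.23%, against 6.86%). These are matches of letters within the window and not measured binding. Matches at any of a gene's starts were counted once.

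Cox8b and Cox7a1 varied far more between tumours than any of the other 76 genes. Cox8b was 8.30 in EMT 4, 7.17 in the Papillary tumour and 11.31 in the Microacinar tumour, and 8.94 in Squamous 4. In the 5 other EMT tumours it lay between 5.76 and 6.05, and in the 8 other Squamous tumours between 5.37 and 6.59. The SD of Cox8b over the 17 tumours was 1.55, larger than that of 97.5% of all genes. Cox7a1 had the same highest tumour of each label, with 7.10 in EMT 4, 6.49 in the Papillary and 9.72 in the Microacinar tumour, and with 7.39 in Squamous 4 and 6.80 in Squamous 1. Its lowest values were 4.39 in EMT 2 and 4.58 in Squamous 9, and its SD was 1.27. The SD of the other 76 genes ran from 0.11 in Atp5pb, a stalk subunit of ATP synthase, to 0.53 in Ndufa4, with a median of 0.25 against 0.32 over all genes.

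The widely expressed counterparts had narrower ranges in the same tumours. Cox7a2 ranged from 12.23 to 12.73 in EMT tumours and from 12.26 to 12.98 in Squamous tumours, with 12.82 in the Papillary and 12.92 in the Microacinar tumour. Cox8a ranged from 10.31 to 10.94 in EMT and from 10.56 to 11.55 in Squamous tumours, with 11.17 in the Papillary and 11.31 in the Microacinar tumour. Cox6a1, the common form of a further complex IV subunit, was 13.20 ± 0.28 (SD, n = 6) for EMT and 13.19 ± 0.13 (SD, n = 9) in Squamous tumours. The gene of its heart and muscle form, Cox6a2, was outside the rule and read 9.73 in EMT 4 and 9.40 in the Microacinar tumour, 7.92 in the Papillary tumour and 6.63 in Squamous 4. Squamous 4, the highest Squamous tumour for Cox8b, was the lowest for Cox6a2.

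Markers of brown fat and of skeletal muscle were both high in the Microacinar tumour. Of the other tumours with high tissue forms, Squamous 4 had a high mean of the brown fat markers, led by Ucp1, and EMT 4 had high muscle markers. Ucp1, the uncoupling protein of brown fat, was 4.22 to 4.83 in EMT tumours, 4.92 in the Papillary tumour and 11.86 in the Microacinar tumour. It was 9.69 in Squamous 4 and 4.22 to 4.85 in the 8 other Squamous tumours. The mean of the 4 brown fat markers (Ucp1, Cidea, Elovl3 and Ppargc1a) was 4.22 to 5.99 in EMT tumours, 6.27 in the Papillary and 9.66 in the Microacinar tumour. It was 7.85 in Squamous 4 and at most 6.23 in the other Squamous tumours. In Squamous 4 Elovl3 (6.51) and Ppargc1a (5.46) were also the highest of the Squamous tumours, but Cidea (9.75) was below Squamous 8 (10.00). Ppargc1a in Squamous 4 was below that in EMT 1 (5.85). All 4 brown fat markers lay above every Squamous tumour in the Microacinar tumour. The mean of 5 general adipocyte markers, among them Adipoq, was 5.71 to 6.45 in EMT tumours, 9.43 in the Microacinar tumour and 8.89 in Squamous 4. The mean of 10 skeletal muscle markers was 11.07 in EMT 4, 10.42 in the Microacinar tumour, 10.02 in the Papillary tumour and 5.26 in Squamous 4. Acta1, the actin of skeletal muscle, was 13.72, 13.25 and 12.34 in EMT 4, the Microacinar and the Papillary tumour and 6.90 in Squamous 4. Squamous 3 and Squamous 6 had muscle means of 9.21 and 9.53 with Cox8b at 6.59 and 6.52, the highest Squamous values below that of Squamous 4. The part of fat or muscle in the Cox8b and Cox7a1 values was not tested.

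**Figure D1:**
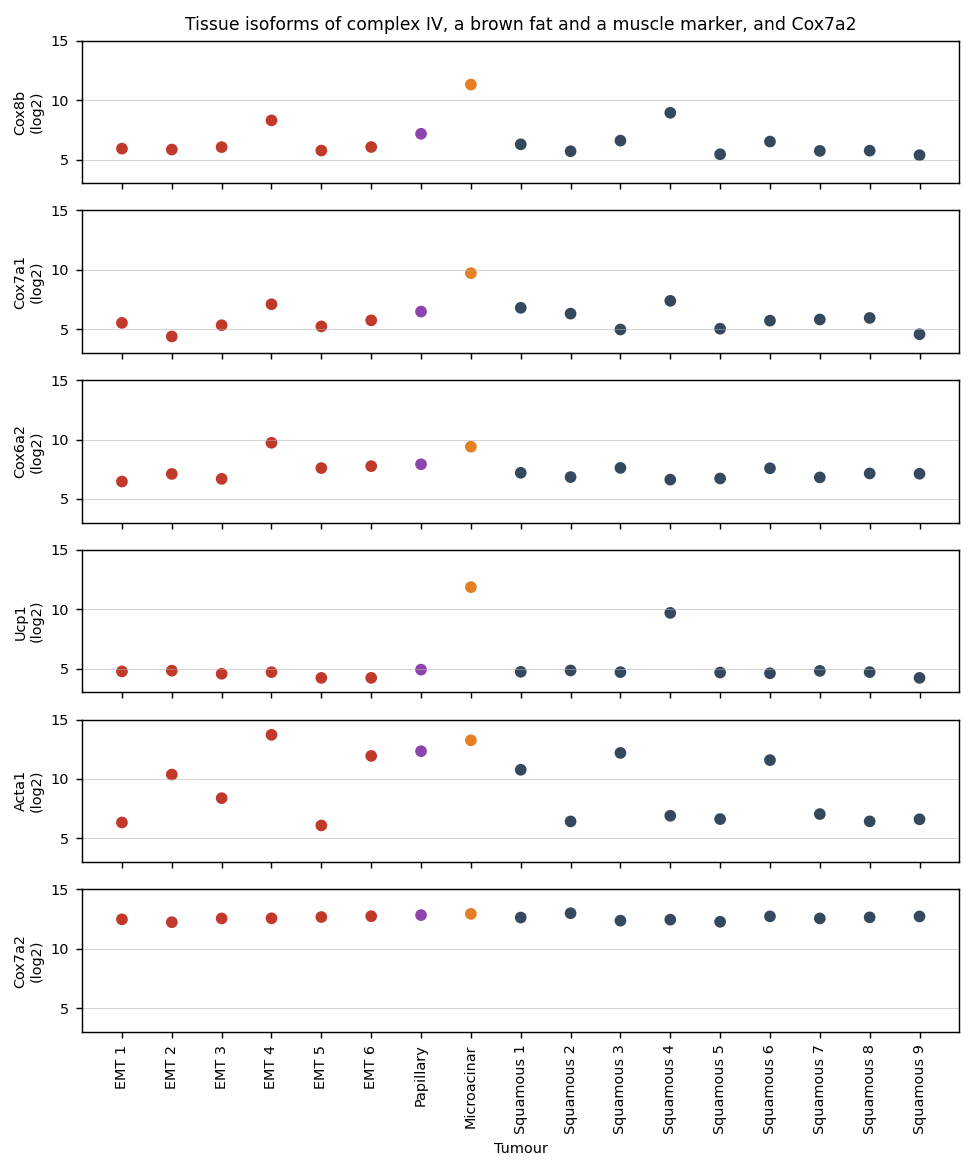
Log2 values (y axes, from 3 to 15) of Cox8b, Cox7a1, Cox6a2, the brown fat marker Ucp1, the muscle marker Acta1 and the common form Cox7a2 in each of the 17 tumours (x axis), 1 point a tumour, with EMT in red, Papillary in purple, Microacinar in orange and Squamous in dark blue. Cox8b and Cox7a1 are highest in EMT 4, the Microacinar tumour and Squamous 4, Ucp1 in the Microacinar tumour and Squamous 4, and Acta1 in EMT 4 and the Microacinar tumour, while Cox7a2 stays between 12.23 and 12.98.

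The other complex IV genes with tissue-dependent forms showed no such peaks. Cox4i2, a form known from lung and low oxygen, was 6.44 ± 0.45 (SD, n = 6) for EMT and 6.56 ± 0.26 (SD, n = 9) in Squamous tumours. Its 3 lowest values were those of the TM arrays, at 5.82 to 5.93 against 6.46 to 6.90 on the 14 others. Cox6b2, known from testis, was 5.97 ± 0.40 (SD, n = 6) for EMT and 5.91 ± 0.45 (SD, n = 9) for Squamous tumours. The probe sets of Cox7c, Ndufs5 and Ndufb1 had mean signals of 6.63, 6.98 and 7.04. For Ndufs5 a further probe set, shared with a pseudogene, was left out by the rule. Its mean was 10.64, with 10.53 in EMT and 10.67 in Squamous tumours.

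Setting EMT against Squamous tumours asks what separates the histologies that have replicates. No gene of the respiratory chain passed it: 0 of 78 had an adjusted p under 0.05 with limma, as did 0.0% of all 12393 genes, and the smallest adjusted p among the 78 was 0.229. At an unadjusted p under 0.05 there were 6 of 78, with 5 lower and 1 higher in EMT tumours, against 14.3% of all genes (6.27% lower and 8.08% higher). The fold change lay below 0 for 63 of the 78 genes, against 48.2% of all genes. The median log2 fold change was −0.11 over the 78 genes and 0.0064 over all genes, and it was −0.05 without EMT 2, −0.07 without the title format term and −0.04 with array weights. By complex the medians were −0.13 for I, 0.02 for II, −0.12 for III, −0.07 for IV and −0.07 for V. The count of 6 became 13 without Squamous 5, 10 without EMT 1, 3 without EMT 2, Squamous 1 or Squamous 6, and 2 without EMT 6. The shares of all genes in these fits are not given here. In none of the 78 genes were EMT and Squamous values free of overlap, against 0.25% of all genes.

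In complex I the furthest gene was Ndufa1, a small membrane subunit needed for assembly of the complex and encoded on the X chromosome. Ndufa1 had a lowest, median and highest value of 11.47, 11.65 and 11.71 in EMT tumours, against 11.66, 12.04 and 12.74 in Squamous tumours. The groups overlapped only through the lowest Squamous value, Squamous 4, and the Papillary and Microacinar tumours both read 12.37. The log2 fold change of Ndufa1 was −0.45 (SE 0.14, limma adjusted p = 0.229). Ndufc2, another membrane subunit, was 11.94 ± 0.29 (SD, n = 6) for EMT and 12.36 ± 0.36 (SD, n = 9) in Squamous tumours, a log2 fold change of −0.33 (SE 0.16, limma adjusted p = 0.366). Ndufv3, an accessory subunit of the NADH-binding arm, ranged from 9.93 to 10.80 in EMT and from 9.90 to 11.38 in Squamous tumours. The log2 fold change of Ndufv3 was −0.27 (SE 0.24), little more than its error.

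The core subunits of complex I, its catalytic part, had log2 fold changes between −0.21 for Ndufs1 and 0.07 for Ndufs7. Ndufv1, the NADH-binding flavoprotein, was 10.32 ± 0.24 (SD, n = 6) for EMT and 10.45 ± 0.20 (SD, n = 9) in Squamous tumours, and Ndufv2, its iron-sulphur partner, was 11.11 ± 0.28 for EMT and 11.17 ± 0.16 for Squamous tumours. Ndufs1, the largest subunit, was 9.47 ± 0.16 in EMT and 9.62 ± 0.24 in Squamous tumours. Of the subunits near the quinone site, Ndufs3 had a log2 fold change of −0.05 (SE 0.10), Ndufs8 −0.17 (SE 0.10) and Ndufs7 0.07 (SE 0.13), each no more than 2 standard errors from 0. Ndufa4 ranged widely in EMT tumours, with 9.83 in EMT 6 and 9.86 in EMT 5 (both TM arrays) and 11.49 in EMT 2. It was 10.73 to 11.23 in Squamous tumours, and its fold change of −0.13 (SE 0.16) was 0.06 among the arrays without TM.

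The median fold change of complex II, 0.02, had no stable sign. It was −0.02 with quantile normalization and −0.05 on the arrays without TM, and it also lay below 0 without EMT 3, EMT 4, EMT 6, Squamous 2 or Squamous 9. Sdhc, a membrane anchor, had a lowest, median and highest value of 10.10, 10.34 and 10.72 in EMT tumours, against 10.03, 10.18 and 10.32 in Squamous tumours. In 3 of 6 EMT tumours it lay above every Squamous tumour, and its log2 fold change was 0.19 (SE 0.09, limma adjusted p = 0.368). Sdhb, the iron-sulphur subunit, was 11.01, 11.12 and 11.31 in EMT 4, EMT 5 and EMT 6, against a highest Squamous value of 10.95, and 10.23 to 10.61 in the other EMT tumours. The fold change of Sdhb was 0.07 (SE 0.14). Sdha, the flavoprotein that oxidises succinate, averaged 10.57 ± 0.31 (SD, n = 6) across EMT tumours and 10.78 ± 0.16 (SD, n = 9) across Squamous tumours, and its fold change was −0.18 (SE 0.12). A second probe set of Sdha gave 0.03 (SE 0.18). Sdhd, the other anchor, had a fold change of −0.03 (SE 0.10).

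In complex III the Rieske iron-sulphur protein Uqcrfs1 was 10.58 ± 0.39 (SD, n = 6) for EMT and 10.84 ± 0.16 (SD, n = 9) in Squamous tumours. Its EMT values lay below every Squamous tumour in 4 of 6 tumours and above them in 1, and the log2 fold change was −0.23 (SE 0.15, limma adjusted p = 0.49). The core protein Uqcrc2 had a fold change of −0.22 (SE 0.12) and its partner Uqcrc1 −0.09 (SE 0.09). Uqcr10, a small subunit, had −0.18 (SE 0.13), and Uqcrb, the ubiquinone-binding protein, −0.09 (SE 0.08). Uqcrq, a small subunit, had the largest SD of the complex, 0.40, with 11.03 in EMT 5 and 11.32 in Squamous 2 as its highest values in these groups.

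In complex IV the fold changes of the common subunits were small. Cox5b, a subunit facing the matrix, was 12.40 ± 0.15 (SD, n = 6) for EMT and 12.60 ± 0.23 (SD, n = 9) in Squamous tumours, a log2 fold change of −0.22 (SE 0.11, limma adjusted p = 0.382). Cox8a had −0.22 (SE 0.15), Cox4i1, which joins early in assembly, −0.20 (SE 0.14) and Cox5a, its neighbour in the complex, −0.06 (SE 0.09). Cox7a2l, which joins complex IV to complex III in supercomplexes, had −0.04 (SE 0.09). The tissue forms had the largest errors, with 0.23 (SE 0.54) for Cox8b and −0.14 (SE 0.46) for Cox7a1. Without EMT 4 the Cox8b value was −0.21, and without EMT 2 the Cox7a1 value was 0.21.

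In complex V the catalytic beta subunit Atp5b had the higher median in EMT tumours, without passing the test. Its lowest, median and highest value were 12.85, 12.96 and 13.08 in EMT tumours, against 12.44, 12.76 and 12.95 in Squamous tumours, with 3 of 6 EMT tumours above every Squamous tumour. The log2 fold change was 0.17 (SE 0.08, limma adjusted p = 0.325). The alpha subunit Atp5a1, which builds the same catalytic ring, had −0.13 (SE 0.13), and the central stalk subunit Atp5c1 −0.10 (SE 0.12). Atp5g3, one of the genes for the membrane ring, had −0.16 (SE 0.10). Another gene for that ring, Atp5g1, had the largest SD of the complex, 0.41, with 10.58 ± 0.19 (SD, n = 6) for EMT and 10.66 ± 0.50 (SD, n = 9) in Squamous tumours. Atp5h, of the peripheral stalk, was 13.30 in EMT 1 and 12.05 to 12.43 in the other EMT tumours, and had −0.16 (SE 0.16).

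**Figure D2:**
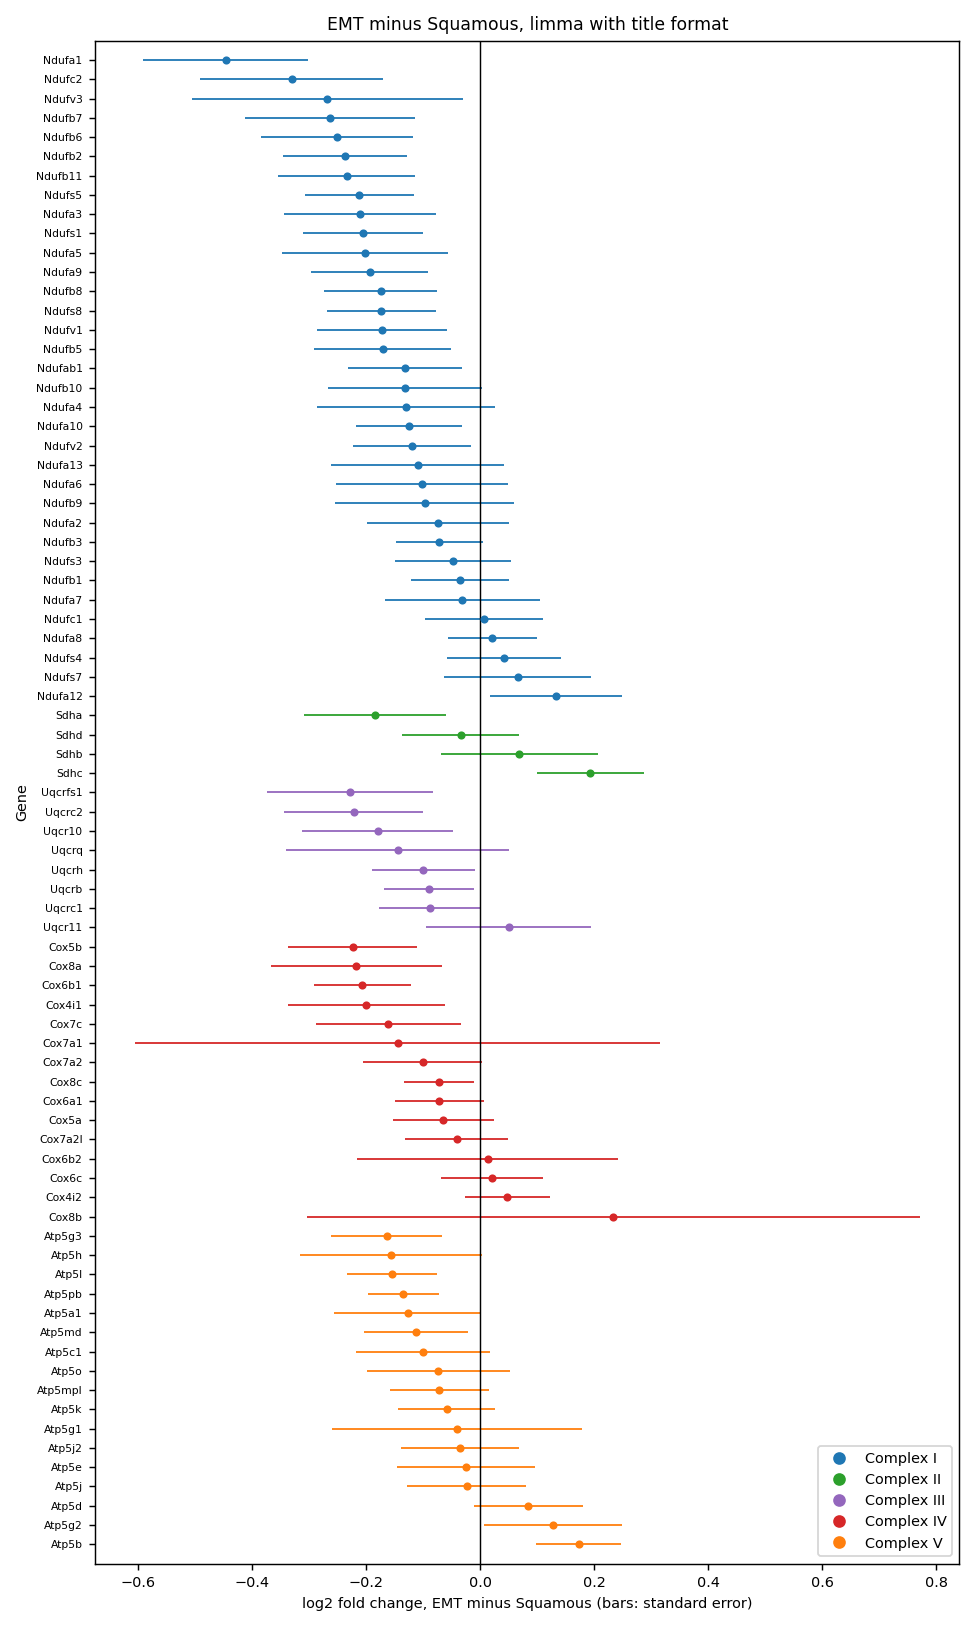
Log2 fold change, EMT minus Squamous (x axis), of each of the 78 genes (y axis, grouped by complex and coloured by it) from limma with a title format term; bars show the standard error. The points of 63 genes lie left of 0, none passes the adjusted threshold, and Cox8b and Cox7a1 have the widest bars, 0.54 and 0.46.

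Of the 6 EMT tumours, EMT 2 had the most genes below the Squamous range. In EMT 2, 41 of the 78 genes lay below all 9 Squamous tumours and 2 above them, against 19.2% and 15.5% of all genes. Over the 2276 other genes with a mean of at least 9.54, as 70 of the 78 had, the shares were 25.3% and 16.6%. The 41 were 20 of 34 genes of complex I, 2 of 4 of complex II, 4 of 8 of complex III, 8 of 15 of complex IV and 7 of 17 of complex V. The median over the 78 genes of the value minus the Squamous mean was −0.35 in EMT 2, and between −0.07 and 0.05 in the 5 other EMT tumours. In the Squamous tumours this median ran from −0.24 in Squamous 5 to 0.30 in Squamous 2. Sdha read 10.02 in EMT 2 against 10.60 to 11.00 in Squamous tumours, Cox4i1 12.07 against 12.46 to 13.27, and Ndufv1 9.85 against 10.18 to 10.70. Ndufa4 and Ndufa12, an accessory subunit, were the genes above all Squamous tumours in EMT 2, at 11.49 and 11.64.

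EMT 1, EMT 3 and EMT 4 had smaller shares of these genes below the Squamous range than of all genes, and the shares of EMT 5 and EMT 6 were close to those of all genes. Below it lay 2 of 78 genes for EMT 1, 3 for EMT 3, 9 for EMT 4, 15 for EMT 5 and 12 for EMT 6, against 8.42%, 6.44%, 17.6%, 20.1% and 16.9% of all genes. Above the Squamous range lay 2, 5, 7, 12 and 11 of 78 in the same tumours, against 10.1%, 9.26%, 19.6%, 27.1% and 26.8% of all genes. Cdh1 was 12.09 in EMT 2, and the median of the EMT 2 array, 7.23, was close to that of Squamous 2 (7.23). The 3′ minus 5′ difference, a measure of RNA integrity, of EMT 2 was 0.05 for Gapdh and 0.54 for beta-actin, against −0.02 to 0.38 and 0.62 to 0.96 in Squamous tumours. EMT tumours ranged from −0.03 to 0.39 and from 0.44 to 0.82. EMT 3 (0.02 and 0.50) and EMT 6 (−0.03 and 0.44) were lower than EMT 2 on both. The part of RNA integrity in the EMT 2 values was not tested.

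Squamous tumours also differed among themselves. In Squamous 2, 48 of the 78 genes lay above all 8 other Squamous tumours and 1 below them, against 21.8% and 12.0% of all genes. In Squamous 5, 38 of 78 lay below all 8 others and 0 above them, against 7.53% and 3.2% of all genes. In each of these tumours complexes I, III, IV and V lay on the same side, with medians from 0.24 to 0.34 in Squamous 2 and from −0.28 to −0.21 in Squamous 5. The median of complex II stayed near 0, at 0.02 in Squamous 2 and −0.0046 in Squamous 5. In EMT 4, EMT 5 and EMT 6, the EMT tumours with low epithelial markers, complex II had medians of 0.16, 0.19 and 0.34, and in the Papillary tumour, with an epithelial mean of 12.36, it had 0.20. EMT 5 and EMT 6 are TM arrays. The mean of 4 macrophage markers (Cd68, Csf1r, Adgre1 and Lyz2) was 11.41, 12.44 and 12.26 in EMT 4, EMT 5 and EMT 6, against 9.44 to 11.73 in Squamous tumours. In Squamous 2 Sdhb was the lowest of all 17 tumours, at 9.98. Myc read 12.29 in Squamous 2 and 9.79 in Squamous 5, the highest and the lowest of the Squamous tumours. Squamous 7 had Myc at 12.15 with a median over the 78 genes of −0.05. The macrophage mean was 9.71 in Squamous 2 and 11.67 in Squamous 5. The mean of 4 fibroblast markers (Col1a1, Col3a1, Dcn and Lum) was 9.87 in Squamous 2 and 11.81 in Squamous 5, and 9.32 in the lowest of the 9 Squamous tumours. The highest was that of Squamous 9, whose median over the 78 genes was 0.10. The part of these cell types and of Myc in the differences was not tested.

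**Figure D3:**
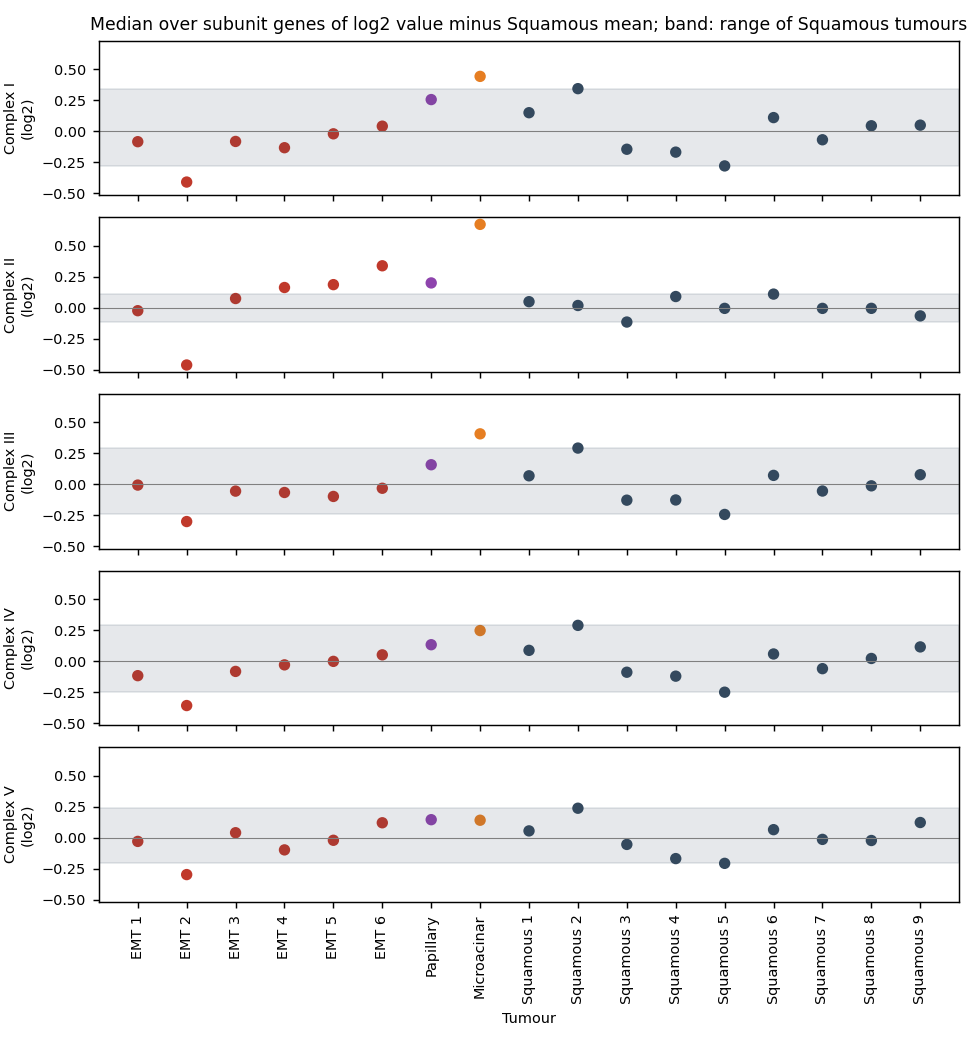
Median over the genes of each complex (5 panels, I to V) of the log2 value minus the Squamous mean (y axis), 1 point for each of the 17 tumours (x axis); the band is the range of the 9 Squamous tumours and colours are as in the plot of tissue forms. EMT 2 lies below the band in every panel, the Microacinar tumour lies above it for complexes I, II and III, at 0.44, 0.67 and 0.41, and the band of complex II is the narrowest, from −0.11 to 0.11.

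The Microacinar tumour had the highest median of the 17 over all 78 genes and for complexes I, II and III. For complex IV its median was 0.25, against 0.29 in Squamous 2, and for complex V it was 0.14, against 0.24 in Squamous 2. It lay above all 9 Squamous tumours in 30 of 78 genes, against 11.1% of all genes, and below them in 1, Cox7a2l (11.19), against 10.0%. The count above was 51 without Squamous 2, which itself lay above the 8 other Squamous tumours in 21.8% of all genes. The matching share of all genes for the count of 51 is not given here. Its median over the 78 genes was 0.36 above the Squamous mean, against −0.004 over all genes. In 4 of the 78 genes it lay below the gene's own median over the 17 tumours, against 48.3% of all genes. With 1 tumour of this label no test was made. All 4 genes of complex II lay above every Squamous tumour: Sdhb read 11.44 against 9.98 to 10.95 in Squamous tumours, Sdha 11.47 against 10.60 to 11.00, Sdhd 11.03 against 10.25 to 10.49, and Sdhc 10.81 against 10.03 to 10.32. So did 16 of 34 genes of complex I, 4 of 8 of complex III, 3 of 15 of complex IV (Cox8b, Cox7a1 and Cox5a) and 3 of 17 of complex V (Atp5b, Atp5c1 and Atp5j2). In complex I Ndufa4 was 11.82 against 10.73 to 11.23, and Ndufb2, a membrane subunit, 11.17 against 10.11 to 10.86. Uqcrc2 in complex III was 11.75 against 10.88 to 11.67.

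Fat and muscle markers were high in the same tumour, as given above for Ucp1 and Acta1. Adipoq read 11.87 in it, against 4.14 to 10.88 in Squamous tumours. The part of fat and muscle in these values was not tested. Squamous 4, the other tumour with Ucp1, had medians of −0.17, −0.13, −0.12 and −0.17 for complexes I, III, IV and V and 0.09 for complex II. EMT 4, with the highest muscle mean, had −0.13, 0.16, −0.07, −0.03 and −0.10 for complexes I to V. Squamous 5, which shares a number in its title with the Microacinar tumour, had the lowest complex I median of the Squamous tumours, −0.28.

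The Papillary tumour had a median over the 78 genes of 0.21 above the Squamous mean, against 0.0003 over all genes. In 5 of the 78 genes it lay below the gene's own median over the 17 tumours, against 48.0% of all genes. Few of the 78 genes left the Squamous range. It was above all 9 Squamous tumours in 8 of 78 genes, against 8.26% of all genes, and below them in 0, against 8.26%. The 8 were 7 genes of complex I and Sdhc. Ndufa5, an accessory subunit, was 11.26 in the Papillary tumour against 9.91 to 10.85 in Squamous tumours, Ndufa4 11.74 against 10.73 to 11.23, and Ndufb2 11.19 against 10.11 to 10.86. Squamous 2 had a higher median, 0.30, so the Papillary median lay within the Squamous range.

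**Figure D4:**
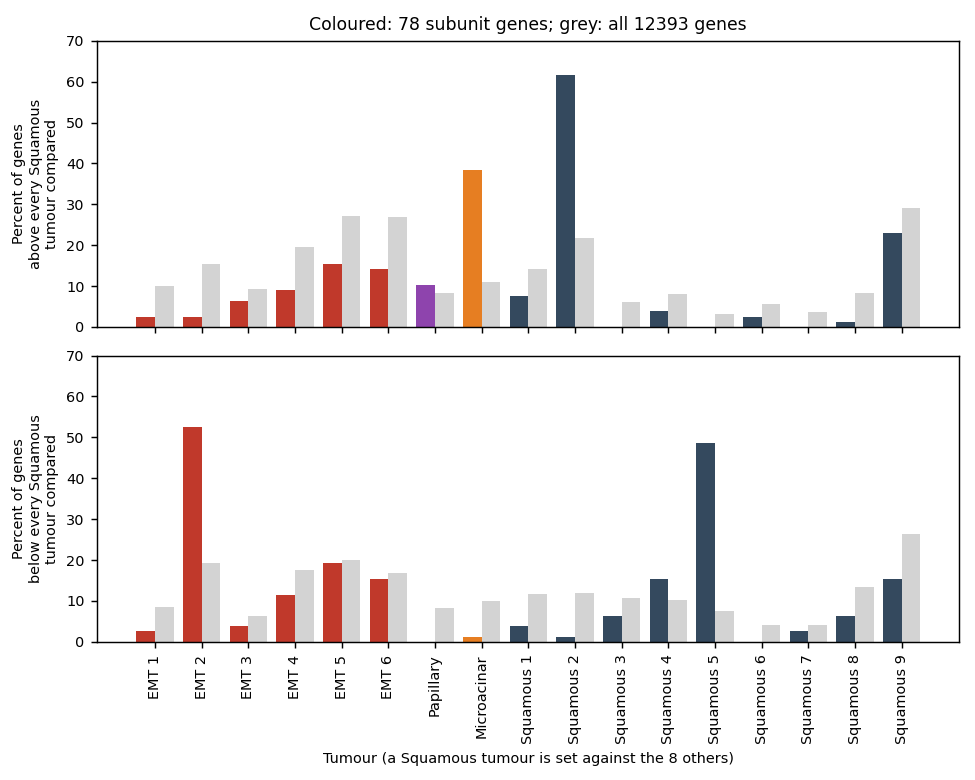
Percent of genes (y axes) above every Squamous tumour (top) and below every Squamous tumour (bottom) in each of the 17 tumours (x axis), with the 78 respiratory chain genes in colour and all 12393 genes in grey; each Squamous tumour is set against the 8 others. The tallest coloured bars are Squamous 2 (61.5%) and the Microacinar tumour (38.5%) in the top panel, and EMT 2 (52.6%) and Squamous 5 (48.7%) in the bottom panel.

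Other mitochondrial gene lists were set beside the 78 genes in the same tumours, and in each list 0 members passed the EMT comparison over all genes. At a limma unadjusted p under 0.05, 6.27% of all genes were lower and 8.08% higher in EMT tumours, the shares to set beside the counts below. Fatty acid oxidation had a median log2 fold change of −0.30 over 14 genes, with 6 lower at an unadjusted p under 0.05 and 0 higher. Its largest was Hadh, a dehydrogenase of the pathway, at −0.68 (SE 0.17, limma adjusted p = 0.153). The 17 genes of the tricarboxylic acid cycle and pyruvate entry had a median of −0.09 and 1 gene each way at that p, with the pyruvate carrier Mpc1 at −0.46 (SE 0.23). The 15 genes of electron carriers and their synthesis had −0.14 and 1 higher, with Coq9, a ubiquinone synthesis protein, at −0.30 (SE 0.21). The 28 assembly factors had 0.0029 and 1 higher, with the complex III factor Ttc19 at 0.42 (SE 0.17), and the 51 mitochondrial ribosomal proteins −0.0074 and 3 higher, with Mrpl13 at 0.33 (SE 0.12). The 17 inner membrane carriers had −0.03 and 2 higher, with the mitochondrial creatine kinase Ckmt1 at −1.46 (SE 0.70). The 20 regulators of mitochondrial biogenesis had 0.03, with 2 lower and 2 higher. Their largest was the coactivator Ppargc1b at −0.66 (SE 0.30, limma adjusted p = 0.337), which was 7.34 in EMT 2, 9.36 in the Microacinar tumour, and 7.63 to 9.49 in Squamous tumours. The 17 glycolysis genes had a median of 0.36, with 2 lower and 4 higher, and the aldolase Aldoc at −1.26 (SE 0.47).

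In the Microacinar tumour larger shares of the lists for fuel oxidation than of the subunit genes left the Squamous range. Above every Squamous tumour lay 13 of 14 fatty acid oxidation genes, 15 of 17 tricarboxylic acid cycle genes and 11 of 15 electron carrier genes, against the 11.1% of all genes. Mitochondrial ribosomal proteins (8 of 51), assembly factors (5 of 28) and glycolysis genes (4 of 17) were fewer by share. Inner membrane carriers had 7 of 17 and regulators of mitochondrial biogenesis 1 of 20. In EMT 2, 7 of 14 fatty acid oxidation genes, 8 of 15 electron carrier genes, 9 of 28 assembly factors, 17 of 51 mitochondrial ribosomal proteins and 6 of 17 tricarboxylic acid cycle genes lay below every Squamous tumour, against the 19.2% of all genes. Inner membrane carriers (3 of 17) and regulators of mitochondrial biogenesis (4 of 20) were close to that share. Of the glycolysis genes in EMT 2, 10 of 17 lay above every Squamous tumour, against 15.5% of all genes, and 3 below them. The median of the glycolysis list was 0.58 above the Squamous mean.

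**Figure D5:**
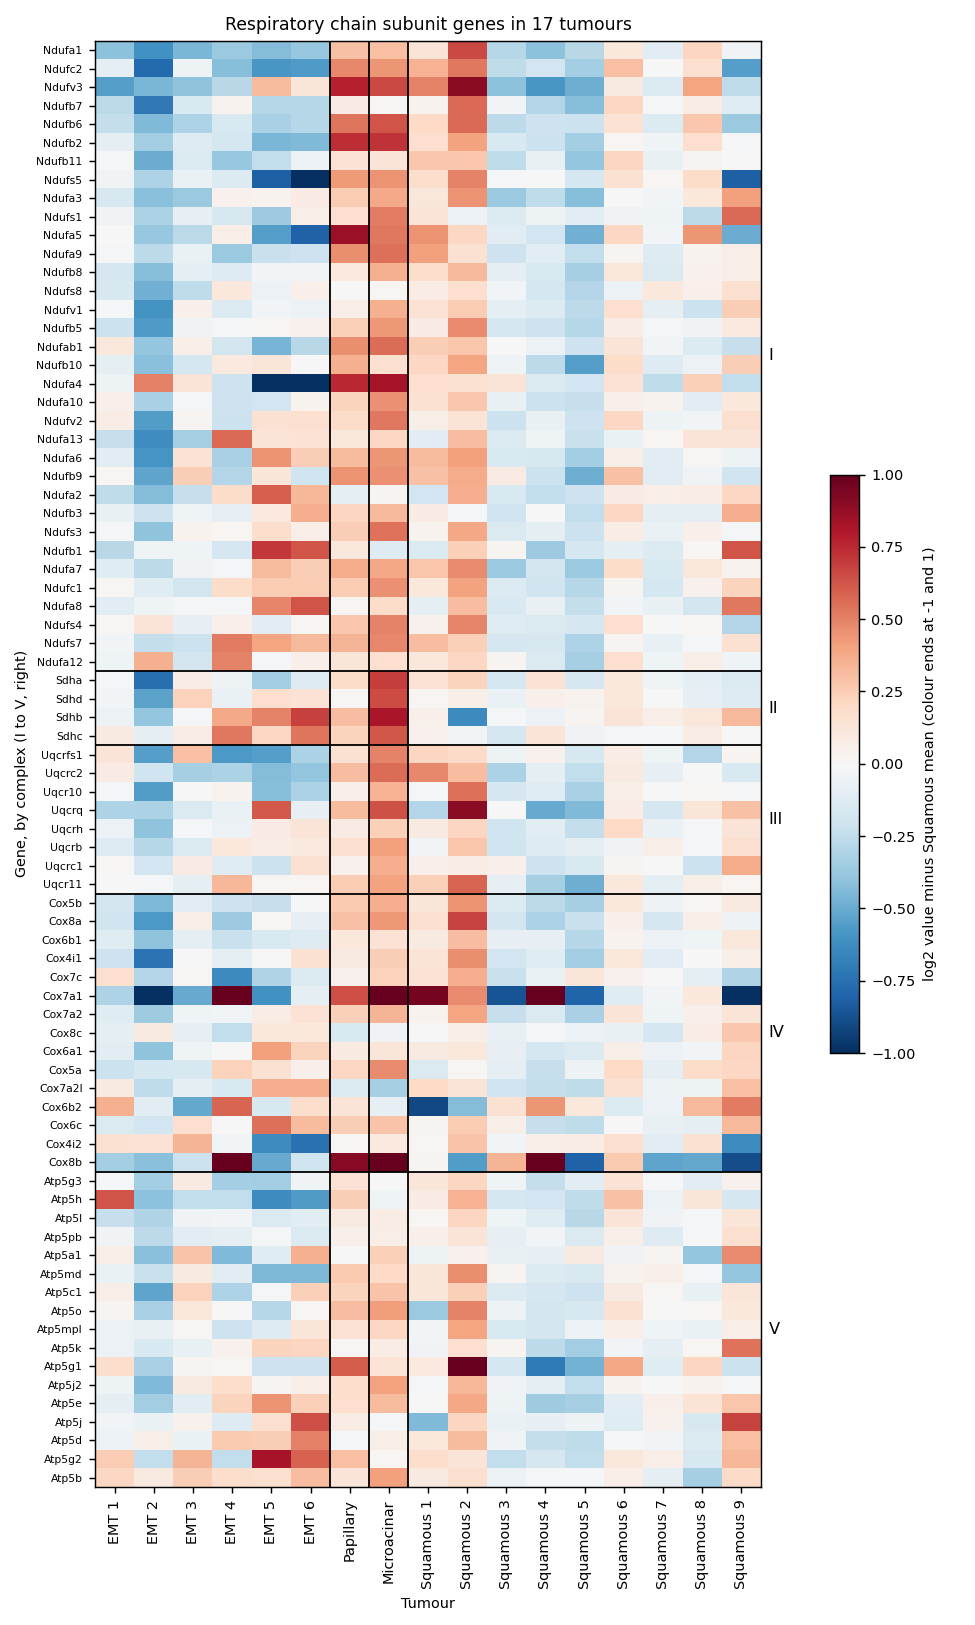
Log2 value minus the Squamous mean (colour, ending at -1 and 1) for the 78 genes (rows, by complex I to V and within it by EMT fold change) in the 17 tumours (columns: EMT, Papillary, Microacinar, Squamous). EMT 2 and Squamous 5 form blue columns, and Squamous 2, Papillary and Microacinar red ones, while Cox8b and Cox7a1 exceed the colour scale in the Microacinar tumour, at 5.06 and 3.88.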

How the data were processed

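Total RNA of 17 tumours was hybridised, 1 array each, as biotin-labelled cRNA, per the labels' protocols. The authors deposited log2 values for 22690 probe sets; their normalization is not given in the sources used here, and their log2 scale follows from their range (array medians of 7.23 to 7.40). The values were used as deposited.

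The platform annotation paired 20380 probe sets with 1 gene, 691 with several and 1555 with none, and 64 were controls. Gene identifiers matched the RefSeq table (GRCm38.p6) for 20351. The probe set with the highest mean stood for each of 12393 genes. No filter on low values was applied, so all 78 members were tested.

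For EMT against Squamous, limma 3.58.1 (R 4.3.3) was fitted to all genes, with histology and title format as terms and Benjamini-Hochberg adjustment at 0.05. The model was tested on simulated data. Papillary and Microacinar, with 1 tumour each, were described without a test. Tables were made with Python 3.11.15 and pandas 2.3.3. Promoter windows came from RefSeq through gene identifiers. Protein sequences were not used here.

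The members and lists were chosen with earlier results of these data known. Named were, per complex, the 3 members with the largest fold changes, those with the highest and lowest mean and the largest SD, core subunits, tissue forms, and from each list the largest fold change, with Myc, Ckm, Acta1, Cdh1, Cox6a2, Ucp1, Adipoq and Ppargc1a. Atp5pb, Ndufa5, Ndufa12, Ndufb1, Ndufb2, Ndufa8, Cox7c, Atp5j2 and Elovl3 were named after their values were seen. So were the shared probe sets of Ndufb4, Ndufa11 and Ndufs5, and the single tumours. Alternatives were no title format term, arrays without TM, the mean of probe sets, quantile normalization, subtracted medians, a trended robust fit, genes above the median level, array weights, all 17 tumours, Squamous 7 and Squamous 8 averaged, and leaving out each tumour.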

Additional observations from a re-analysis of the deposited data

Results flagged for a closer look

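A tumour was marked where its gap to the nearest tumour of its label was a larger part of the label's range than Dixon's 95% critical value allows. Of 90 such tests over 39 genes and the complex medians, 16 were marked. Chance marks about 1 in 20 of independent tests on genes chosen without regard to their values. Some of the 39 genes were named for a large SD or fold change in these tumours, and the tests share tumours. The 16 marks were therefore not measured against that rate.

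EMT 2 was the lowest EMT tumour by this measure for the median over the 78 genes (−0.35, next −0.07), the median of complex III (−0.30, next −0.10), Ndufv1 (9.85, next 10.31), Ndufs3 (9.87, next 10.25) and Ndufa1 (11.47, next 11.62). Squamous 2 was the highest Squamous tumour for Cox8a (11.55, next 11.04), Uqcr10 (11.33, next 10.84) and Ndufs3 (10.65, next 10.34), and the lowest for Sdhb (9.98, next 10.57). Cox8b stood apart in EMT 4 (8.30, next 6.05) and in Squamous 4 (8.94, next 6.59). Squamous 9, a TM array, stood apart for Ndufs1 (10.19, next 9.75), Uqcrc1 (11.30, next 10.99) and, as the lowest, Cox4i2 (5.93, next 6.46). The remaining marks were Atp5h in EMT 1 (13.30, next 12.43) and Uqcrq in EMT 5 (11.03, next 10.34).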

How the results depend on the processing

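The count of 0 genes past the adjusted threshold held under all 10 other settings and without each of the 15 tumours in turn. The setting of genes above the median level left out genes of low mean, among them Cox4i2, Cox6b2, Cox7a1, Cox8b and Ndufs5. The count at an unadjusted p was 3 with array medians subtracted and 2 with array weights, among genes above the median level and on arrays without TM, and ranged from 2 to 13 over the tumours left out. The count of genes above all Squamous tumours in the Microacinar tumour ranged from 30 to 51 over the Squamous tumours left out, a setting chosen after seeing the data. For the counts under these settings the matching shares of all genes are not given. Other counts and medians moved by less than 1.5 times or by less than the spread between tumours, although the median of complex V lay above 0 with array weights and that of complex II, −0.0476 to 0.1309 over the tumours left out, changed sign. Of 39 named genes none passed under any setting in which it was tested, and 25 kept their sign in all of those. With array weights the fold change was 0.0175 for Atp5a1, 0.0473 for Atp5c1, 0.10 for Atp5g1, −0.10 for Cox6b2, 0.0166 for Cox7a2l, 0.021 for Ndufs3 and 0.0319 for Sdhd. Without the title format term it was −0.13 for Cox4i2, 0.0109 for Cox6a1 and 0.0512 for Cox7a2l, and on arrays without TM 0.0616 for Ndufa4. Over the tumours left out the range was −0.19 to 0.0021 for Atp5c1, −0.12 to 0.071 for Atp5g1, −0.0044 to 0.0891 for Cox4i2, −0.12 to 0.0026 for Cox6a1, −0.14 to 0.14 for Cox6b2, −0.49 to 0.21 for Cox7a1, −0.0868 to 0.0015 for Cox7a2l, −0.21 to 0.53 for Cox8b, −0.27 to 0.0616 for Ndufa4, −0.0933 to 0.0395 for Ndufs3, −0.0586 to 0.14 for Ndufs7, −0.0255 to 0.17 for Sdhb and −0.11 to 0.0902 for Sdhd. The cause was not tested. No paired analysis was possible because EMT and Squamous tumours share no number in their titles, and the number that Squamous 5 shares with the Microacinar tumour is the only one across histologies.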

Other observations

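Members of one complex differed between the 2 title formats in opposite directions. On the 3 TM arrays Ndufs5 (6.05 to 6.26, against 6.76 to 7.57 on the 14 others), Ndufa5 (9.60 to 9.91, against 9.92 to 11.26) and Atp5md (9.93 to 9.98, against 10.15 to 10.84) were lower. Ndufa8 (11.20 to 11.33, against 10.47 to 11.02), Ndufb1 (7.63 to 7.70, against 6.63 to 7.24), Cox6a1 (13.40 to 13.60, against 12.79 to 13.31) and Cox7a2l (11.83 to 11.89, against 11.19 to 11.73) were higher. The TM format holds 2 EMT tumours and 1 Squamous tumour. The EMT values were computed with and without the title format term and on the arrays without TM.

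Of 71 further probe sets of the 78 genes, 8 had an EMT fold change of the opposite sign to the one used, and 7 of these had a mean below 9. The eighth was that of Sdha. The largest was a second probe set of Ndufa12, at −0.31. Probe sets shared with other genes, 8 in all and outside the gene test, included Ndufb4 with its copies, at means of 10.65 in EMT and 10.89 in Squamous tumours, and Ndufa11 with its copy, at 10.54 in EMT and 10.74 in Squamous tumours.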
